A study of Homo sapiens with 6 samples.

Results

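HLA class I molecules display peptides from inside the cell on its surface, and 9 genes of this pathway were described in HCT116 cells. HCT116 is an established human colorectal cancer cell line. The 9 genes were chosen by symbol from 56638 gene rows. HLA-B and HLA-C encode classical heavy chains, HLA-E a non-classical heavy chain and B2M the light chain. TAP1 and TAP2 encode the peptide transporter, TAPBP encodes tapasin, and PSMB8 and PSMB9 encode inducible proteasome subunits. All 9 were listed in the files, and 8 passed the filter on low counts, all except PSMB8. The 3 libraries labelled ZFP90 knockout were compared with 3 control libraries. Guide RNAs against exon 3 of ZFP90 were used to make knockout alleles in HCT116, all cells were between passages 16 and 19, and all were grown in RPMI-1640 with 10% serum. ZFP90 encodes a KRAB zinc-finger protein, and the series title concerns colorectal carcinogenesis and stemness. The labels give neither the treatment of the controls nor whether a group's libraries came from separate clones or cultures, so the p-values below describe variation among libraries that may be technical repeats.

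Proteasomes cut cytosolic proteins into peptides. In cells exposed to interferon, the inducible subunits PSMB8, PSMB9 and PSMB10 take the places of PSMB5, PSMB6 and PSMB7. The TAP1-TAP2 transporter carries peptides into the endoplasmic reticulum, where tapasin holds heavy chains bound to B2M until a peptide is loaded. NLRC5, with the RFX and NF-Y factors, drives class I promoters, and interferon and NF-kappa-B signals raise them. Loss of these components is a known route by which colorectal tumours escape T cells, and HLA-E is a ligand of an inhibitory receptor on natural killer cells.

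The promoters are shown because HLA-B and HLA-C were called higher while B2M, TAP1 and TAPBP were not. The 250 bases before the annotated start of each gene, 5′ to 3′ on the gene's strand, were taken from RefSeq (GRCh38.p14). The table held 8 of the 9 genes, without HLA-E. HLA-B is at chr6:31357180-31357429 (minus strand), HLA-C at chr6:31272093-31272342 (minus), B2M at chr15:44711267-44711516 (plus), TAP1 at chr6:32853705-32853954 (minus) and TAPBP at chr6:33314079-33314328 (minus). Capitals mark matches, on either strand, to the interferon-response element core (GAAA, any 2 bases, GAAA), the kappa-B letters (GGGGA followed at once by TTCCC), the interferon-gamma site letters TTCNNNGAA and the NF-Y letters CCAAT; matches may overlap.
HLA-B: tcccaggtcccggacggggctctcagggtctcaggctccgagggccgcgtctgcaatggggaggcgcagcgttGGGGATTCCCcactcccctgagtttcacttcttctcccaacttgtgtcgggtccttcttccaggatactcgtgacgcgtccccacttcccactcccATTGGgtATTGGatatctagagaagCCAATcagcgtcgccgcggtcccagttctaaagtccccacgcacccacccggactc
HLA-C: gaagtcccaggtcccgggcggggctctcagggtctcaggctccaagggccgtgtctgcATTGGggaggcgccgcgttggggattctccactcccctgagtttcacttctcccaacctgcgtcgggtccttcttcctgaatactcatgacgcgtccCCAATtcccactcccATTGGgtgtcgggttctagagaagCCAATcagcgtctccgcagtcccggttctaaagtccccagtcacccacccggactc
B2M: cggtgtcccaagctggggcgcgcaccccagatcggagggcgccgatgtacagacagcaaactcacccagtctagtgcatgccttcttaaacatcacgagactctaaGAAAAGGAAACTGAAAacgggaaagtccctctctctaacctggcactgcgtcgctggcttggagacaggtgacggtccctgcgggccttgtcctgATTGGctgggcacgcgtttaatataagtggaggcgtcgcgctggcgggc
TAP1: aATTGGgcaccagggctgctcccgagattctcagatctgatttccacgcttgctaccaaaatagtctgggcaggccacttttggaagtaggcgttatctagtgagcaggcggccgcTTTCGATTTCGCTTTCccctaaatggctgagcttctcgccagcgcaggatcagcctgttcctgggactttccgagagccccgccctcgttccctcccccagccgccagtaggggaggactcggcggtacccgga
TAPBP: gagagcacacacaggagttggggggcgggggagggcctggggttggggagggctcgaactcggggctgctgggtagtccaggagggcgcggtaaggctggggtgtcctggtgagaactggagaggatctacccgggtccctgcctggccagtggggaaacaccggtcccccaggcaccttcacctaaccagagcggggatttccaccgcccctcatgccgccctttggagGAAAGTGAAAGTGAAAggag

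The HLA-B and HLA-C windows were 89% identical in a global alignment, against 47.3% for HLA-B and B2M. HLA-B held 3 CCAAT matches and HLA-C 4. B2M, PSMB9 and the TAP1 window shown held 1 each, although those genes were not called. TAP2 and TAPBP held 0. CCAAT occurred in 32% of the 35116 RefSeq promoter windows of the same length. The kappa-B letters matched in HLA-B and in no other window of the 8 genes in the table, and in 0.0683% of all windows. The letters searched for the interferon-response core matched in B2M, TAP2, TAPBP and the TAP1 window shown, and in 3.02% of all windows. Those exact letters had no match in the HLA-B or HLA-C window. The interferon-gamma letters matched in a second TAP1 window and in 1 of the PSMB8 windows, and in 6.57% of all windows. TAP1 and PSMB9 are transcribed away from each other, with 487 bases between their RefSeq starts. Only the letters given above were searched, and other spellings of the same sites were not counted. A window without a match may therefore hold such a site in another spelling. The matches are letters in a reference sequence, not measured binding.

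The reads in genes numbered 17012910, 14450905 and 15623217 in libraries 1 to 3 labelled knockout, and 16215490, 14225911 and 13424356 in controls 1 to 3. The targeted gene, ZFP90, had more RNA in the libraries labelled knockout, at 85.7 ± 4.75 CPM (reads of a gene scaled to the library's size) against 46.0 ± 2.53 CPM in controls (SD, n = 3 each; edgeR adjusted p = 5.1e-05). Gene counts do not show whether exon 3 was disrupted, so directions are given for the libraries as labelled. Summed CPM of 9 colorectal epithelial markers lay between 2919 and 3021 in the libraries labelled knockout and between 2911 and 3068 in controls, while VIL1 and CDX1 did not pass the count filter. KRT18, an epithelial keratin, was lower by the fit (log2 fold change -0.23; edgeR adjusted p = 0.0394), a call lost with the replicate number as a block (0.0693), with DESeq2 (0.0553) and without control 3 or replicates 2 or 3 labelled knockout (0.0801 to 0.132). The sum of 12 leukocyte markers was 4.33 to 4.71 CPM in the libraries labelled knockout and 6.05 to 6.84 CPM in controls, where PTPRC had 0 reads in every library but 1 control, which had 1 read. Only CD4 and CD8A of these markers were tested. CD4 had 1.55 ± 0.366 CPM in the libraries labelled knockout and 3.83 ± 0.243 CPM in controls (SD, n = 3 each; log2 fold change -1.30; edgeR adjusted p = 0.00268). CD8A was not called, at 1.34 ± 0.261 CPM in the libraries labelled knockout and 0.978 ± 0.407 CPM in controls (adjusted p = 0.351). LYZ and ITGAM, untested, also had higher means in the libraries labelled knockout, at 0.378 and 0.709 CPM against 0.243 and 0.577 CPM; the part of these levels in the class I values was not tested. Of 16369 genes tested, 21.1% were called in either direction at an adjusted p under 0.05, 9.73% higher and 11.4% lower.

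The 3 chosen heavy chain genes rose by a small amount. HLA-B, HLA-C and HLA-E were each called higher in the libraries labelled knockout, by 1.22-fold, 1.12-fold and 1.14-fold. The light chain, both transporter subunits and tapasin were within a few percent of the controls. The inducible proteasome subunits had so few reads that little could be measured. Of the 8 genes tested, 3 were called higher and 0 lower with edgeR's quasi-likelihood test, against 9.73% and 11.4% of all genes tested. The counts were 3 and 0 at an unadjusted p under 0.05, 3 and 0 with limma-voom, and 1 and 0 with DESeq2. The median log2 fold change of the 8 was -0.0093, and 0.0084 for all genes tested.

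**Figure D1:**
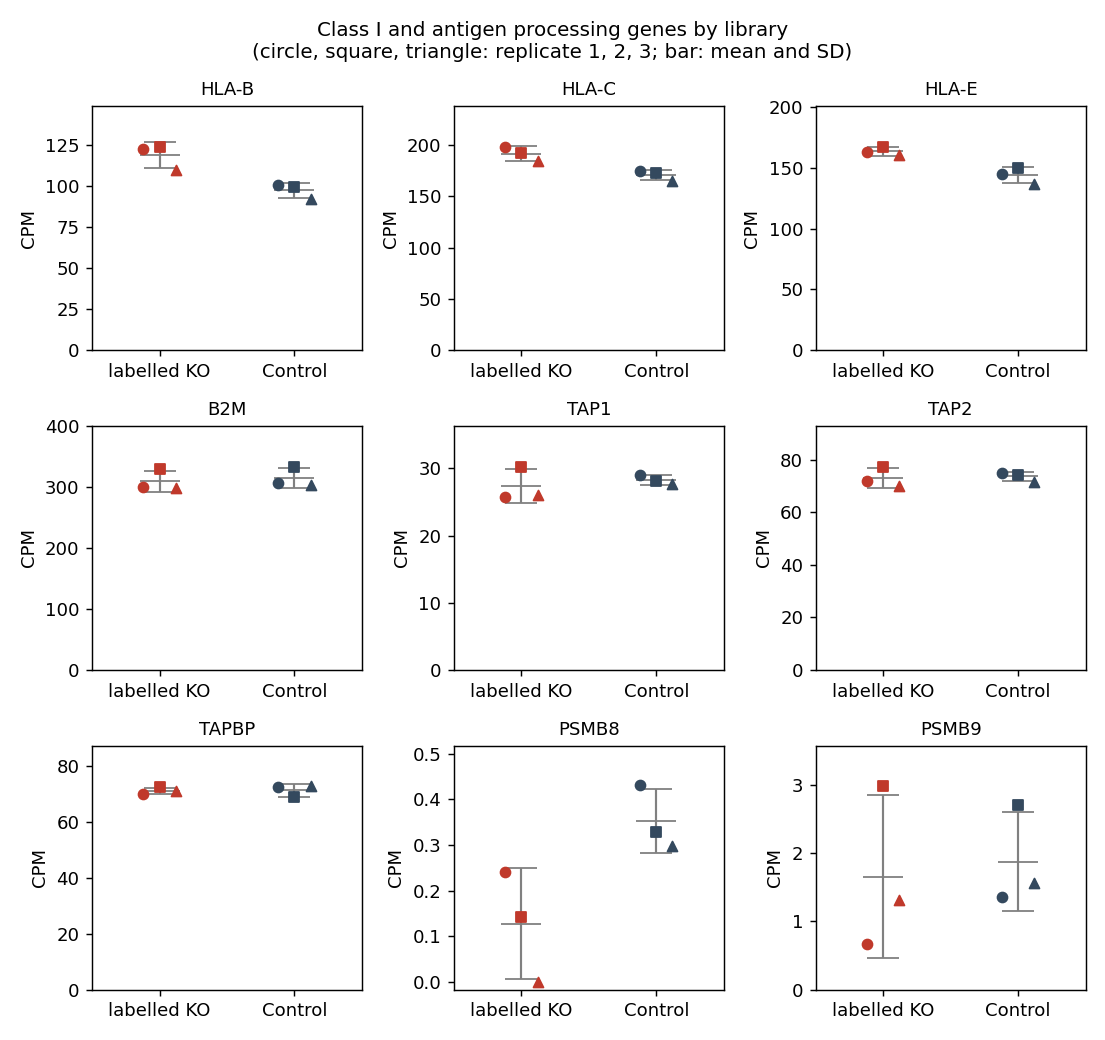
CPM of each gene (vertical axes, linear, 1 scale per gene) in the 3 libraries labelled ZFP90 knockout and the 3 controls; symbols mark the replicate number, and bars the mean and SD. The libraries labelled knockout lie above all controls for HLA-B, HLA-C and HLA-E, overlap them for B2M, TAP1, TAP2, TAPBP and PSMB9, and lie below them for PSMB8, where all 6 values are under 0.5 CPM.

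HLA-B, a classical heavy chain that presents peptides to CD8 T cells, lies on the minus strand of chromosome 6 within 31269491 to 31357188 (GRCh38, GENCODE release 29, whose span includes a long transcript reaching HLA-C). It measured 123, 124 and 109.8 CPM in the libraries labelled knockout, from 2034, 1747 and 1677 reads, against 101, 99.3 and 92.4 CPM in controls, from 1632, 1509 and 1238 reads. The lowest library labelled knockout was above the highest control. The log2 fold change was 0.29 (SE 0.063, 95% interval 0.14 to 0.43; edgeR quasi-likelihood test, adjusted p = 0.0143).

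HLA-C, a classical heavy chain that also engages natural killer cell receptors, lies on the minus strand from 31268749 to 31272130. It measured 198, 192 and 184 CPM in the libraries labelled knockout, from 3274, 2708 and 2809 reads, against 174, 173 and 165 CPM in controls, from 2819, 2625 and 2205 reads. The groups again did not overlap. The log2 fold change was 0.17 (SE 0.049, 95% interval 0.05 to 0.28; edgeR adjusted p = 0.044), close to the threshold.

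HLA-E lies on the plus strand from 30489467 to 30494205. It measured 163, 167 and 160.0 CPM in the libraries labelled knockout, from 2697, 2354 and 2444 reads, against 145, 149.9 and 137 CPM in controls, from 2345, 2278 and 1831 reads. All libraries labelled knockout were above all controls, with a log2 fold change of 0.18 (SE 0.051, 95% interval 0.07 to 0.30; edgeR adjusted p = 0.0344). Across all genes tested the groups did not overlap for 41.2%, so the separation of these 3 genes is not unusual in these libraries.

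The heavy chain calls depended on the libraries, the scaling and the tool. With 1 library left out, HLA-B was called without control 1, control 2 or replicate 3 labelled knockout, and lost the call without control 3 (edgeR adjusted p = 0.0501) and without replicates 1 or 2 labelled knockout (0.0706 and 0.0543). HLA-C and HLA-E were called only when the library left out was control 2. Without the others, their adjusted p ran from 0.0652 to 0.164 for HLA-C and from 0.0814 to 0.109 for HLA-E. The number of genes called higher was therefore 3 of 8 without control 2, 1 without control 1 or replicate 3 labelled knockout, and 0 without control 3 or replicates 1 or 2 labelled knockout. Scaling by library size alone also left 0, with log2 fold changes of 0.22, 0.10 and 0.11 for HLA-B, HLA-C and HLA-E; that scaling moved the median of all genes by -0.067. With all libraries kept, HLA-C and HLA-E also lost their calls with DESeq2 (adjusted p of 0.099 and 0.0752) and with upper quartile scaling (0.111 and 0.0955), and HLA-C with no filter on low counts (0.0604).

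**Figure D2:**
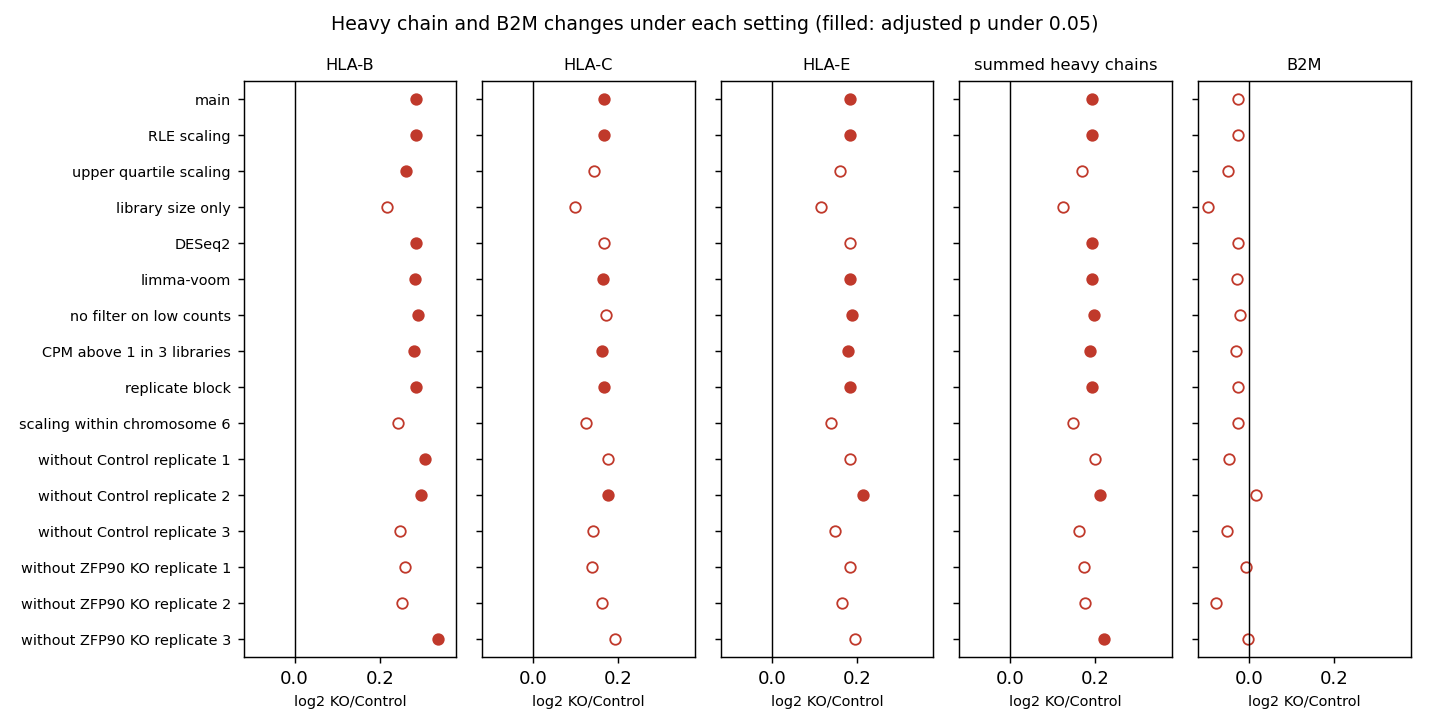
Log2 fold change of the libraries labelled knockout over controls (horizontal axes) for HLA-B, HLA-C, HLA-E, the summed heavy chain reads and B2M under each setting (rows); filled points have an adjusted p under 0.05. All heavy chain points lie above 0, from 0.10 to 0.34, and the HLA-B point is filled in more settings than those of HLA-C and HLA-E, while no B2M point is filled.

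Reads from similar HLA genes can be set aside or split in counting, since HLA sequences resemble each other and vary between people. Of the 50-base windows in the longest consensus coding transcript of each gene (GENCODE release 29), 2.54% for HLA-B, 6.79% for HLA-C and 5.13% for HLA-E also occurred in transcripts of other genes. For 100-base windows these shares were 0%, 0.278% and 0.6%. The alleles of HCT116 were not used here, and reads that the reference did not match are not in the counts. A sum of reads over HLA-B, HLA-C, HLA-E and 11 other class I heavy chain genes and pseudogenes stays the same when reads move among those 14, the only genes it covers. The sum held 8199, 6960 and 7090 reads in the libraries labelled knockout and 6989, 6610 and 5434 in controls, or 495, 494 and 464 CPM against 431, 435 and 406 CPM. Its log2 fold change was 0.19 (SE 0.052, 95% interval 0.07 to 0.31; edgeR adjusted p = 0.0305). Leaving out any library except control 2 or replicate 3 labelled knockout raised the adjusted p of the sum to between 0.0806 and 0.12.

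HLA-B took 25.4%, 25.7% and 24.2% of the reads of HLA-B, HLA-C and HLA-E in the libraries labelled knockout, and 24.01%, 23.5% and 23.5% in controls, so every library labelled knockout was above every control. The Wilson 95% intervals overlapped between groups for all pairs of libraries but 1: that of replicate 2 labelled knockout, 24.63% to 26.7%, lay above that of control 2, 22.5% to 24.59%. HLA-C took 40.899%, 39.8% and 40.5% in the libraries labelled knockout and 41.5%, 40.939% and 41.8% in controls, so every library labelled knockout was below every control, the nearest pair by less than counting error. These intervals cover counting error only, and the shares were not tested across libraries.

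HLA-F, a non-classical heavy chain gene nearby, was not called, at 5.36 ± 0.187 CPM in the libraries labelled knockout and 5.49 ± 0.0888 CPM in controls (SD, n = 3 each; log2 fold change -0.04, 95% interval -0.31 to 0.23; edgeR adjusted p = 0.871). HLA-G had 0 reads in all libraries labelled knockout and 1 read over the 3 controls. Of the 11 other class I heavy chain genes and pseudogenes, 4 were tested, and edgeR called 0 higher and 0 lower. The counts were also 0 and 0 at an unadjusted p under 0.05, with DESeq2 and with limma-voom. By edgeR, 9.73% of all genes tested were called higher and 11.4% lower. All 4 had log2 fold changes below 0, from -0.50 to -0.04, with a median of -0.26.

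B2M, the invariant light chain that every class I heavy chain needs to reach the surface, occupies bases 44711487 to 44718877 of chromosome 15, plus strand. It measured 300.1, 330.0 and 299 CPM in the libraries labelled knockout, from 4968, 4653 and 4563 reads, against 308, 334 and 304 CPM in controls, from 4986, 5076 and 4070 reads. The groups overlapped, and replicate 2 was the highest in each. The log2 fold change was -0.026 (SE 0.060, 95% interval -0.16 to 0.11; edgeR adjusted p = 0.795), so a rise of the size fitted for HLA-B lay outside the interval for B2M.

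Ratios of reads within a library need no scaling between libraries. They were added after the data were seen, with the genes above and below the line picked for how they had moved, so they are given as values with no test. HLA-B, HLA-C and HLA-E together had 1.61, 1.46 and 1.52 reads per B2M read in the libraries labelled knockout, against 1.36, 1.26 and 1.30 in controls. The difference in the mean log2 ratio was 0.23, with SDs of 0.070 among the libraries labelled knockout and 0.056 among controls. Against TAPBP reads the difference was 0.21 and against TAP2 reads 0.22.

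**Figure D3:**
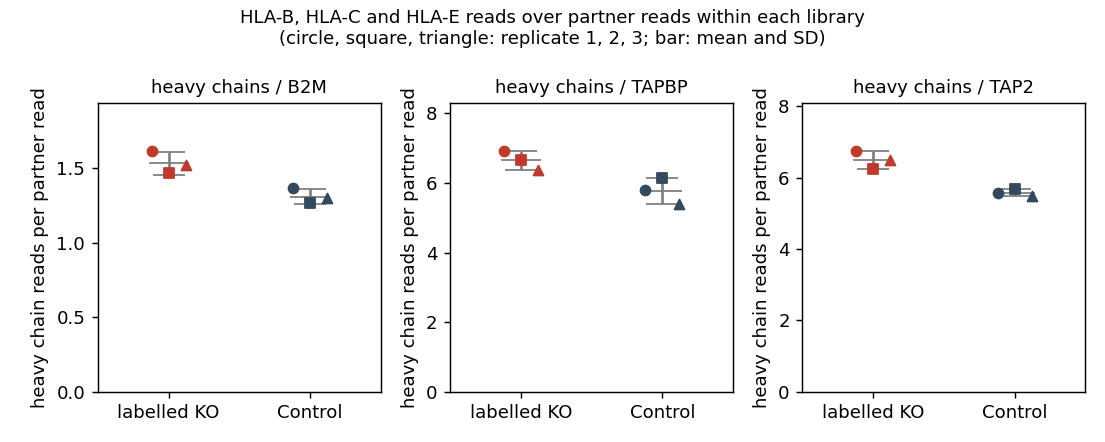
Reads of HLA-B, HLA-C and HLA-E per read of B2M, TAPBP or TAP2 within each library (vertical axes start at 0); symbols mark the replicate number, and bars the mean and SD of 3 libraries. In each panel the 3 libraries labelled knockout lie above the 3 controls.

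TAP1, the first subunit of the peptide transporter, lies on the minus strand from 32845209 to 32853978. It measured 25.7, 30.3 and 26.05 CPM in the libraries labelled knockout, against 29.1, 28.2 and 27.6 CPM in controls. Replicate 2 labelled knockout was the highest and the other two were the lowest of all 6. The log2 fold change was -0.050 (SE 0.082, 95% interval -0.24 to 0.13; edgeR adjusted p = 0.7).

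TAP2, the second transporter subunit, lies on the minus strand from 32821833 to 32838780. It measured 71.8, 77.4 and 69.9 CPM in the libraries labelled knockout, against 75.2, 74.2 and 71.7 CPM in controls. The groups overlapped, with a log2 fold change of -0.014 (SE 0.057, 95% interval -0.14 to 0.12; edgeR adjusted p = 0.891). In GENCODE release 29, 32.3% of the exon bases of TAP2 are also exon bases of another gene on the same strand, so its level may be understated where such reads were set aside. With genes on either strand counted, the shares were 20.6% for PSMB8, 18.9% for HLA-B, 9.49% for TAP1, 5.66% for PSMB9 and 1.4% for HLA-C. HLA-E, B2M and TAPBP had 0%.

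TAPBP encodes tapasin, which bridges the transporter and the heavy chain, and lies on the minus strand from 33299694 to 33314387. It measured 70.02, 72.4 and 71.1 CPM in the libraries labelled knockout, against 72.5, 68.8 and 72.9 CPM in controls. Its log2 fold change of -0.0045 (SE 0.051, 95% interval -0.12 to 0.11; edgeR adjusted p = 0.963) was the smallest of the 8 in size. For B2M, TAP1, TAP2 and TAPBP, changes beyond their intervals were not seen, while smaller ones could not be told from 0.

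PSMB8, the inducible subunit that replaces PSMB5, had 4, 2 and 0 reads in the libraries labelled knockout and 7, 5 and 4 in controls. These are near the level of 3 reads, 0.181 to 0.224 CPM depending on the library, and PSMB8 did not enter the test. Over the summed 6 and 16 reads, the ratio was 0.366 with an exact 95% counting interval from 0.117 to 0.984. That interval pools the reads of each group and covers counting error only, not variation among libraries, so it is no test of PSMB8 between the groups. PSMB9, which replaces PSMB6, had 11, 42 and 20 reads in the libraries labelled knockout and 22, 41 and 21 in controls, or 0.665, 2.98 and 1.31 CPM against 1.36, 2.70 and 1.57 CPM. Replicate 2 was the highest in each group, and the log2 fold change of -0.22 had a 95% interval from -1.33 to 0.88 (edgeR adjusted p = 0.785).

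PSMB10, the third inducible subunit, fell. It had 9, 9 and 15 reads in the libraries labelled knockout and 23, 25 and 23 in controls, and all libraries labelled knockout were below all controls. The log2 fold change was -1.13 (SE 0.28; edgeR adjusted p = 0.0204). The call was lost without control 3 (0.0596) and without replicates 1 or 2 labelled knockout (0.0883 and 0.067). The standard subunits had far more reads, with PSMB5 at 72.5 ± 3.397 CPM in the libraries labelled knockout and 68.2 ± 1.73 CPM in controls, PSMB6 at 55.2 ± 2.92 and 63.5 ± 3.12 CPM, and PSMB7 at 106 ± 5.99 and 95.3 ± 15.6 CPM (SD, n = 3 each). None of the 3 was called with edgeR; PSMB6 had an adjusted p of 0.0546, and was called lower when scaled by library size alone (0.034) or tested among genes above 1 CPM in 3 libraries (0.0496).

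For every 1000 reads of the standard subunit, the libraries labelled knockout held 3.19, 1.95 and 0 reads of PSMB8 per PSMB5, against 6.40, 4.69 and 4.45 in controls. PSMB9 reads per 1000 of PSMB6 were 11.4, 57.0 and 23.7 in the libraries labelled knockout and 22.2, 40.3 and 25.2 in controls. PSMB10 reads per 1000 of PSMB7 were 4.84, 6.31 and 9.53 in the libraries labelled knockout and 13.2, 21.1 and 17.1 in controls. The exact two-sided permutation p was 0.9 for PSMB9 and 0.1, the smallest possible, for PSMB10 (0.9 and 0.2 adjusted over both); the PSMB8 ratio had a library at 0 and was not tested on the log scale. PSMB7 lies on chromosome 9, where control 2 was low, and without control 2 the PSMB10 difference in mean log2 ratio was -1.18 in place of -1.345 with all controls.

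Levels of different genes were compared per kilobase, and the order depended on the length used. With the longest consensus coding transcript of GENCODE release 29, a length added after the data were seen, B2M was highest, at 182 ± 10.4 CPM per kilobase in the libraries labelled knockout and 185 ± 9.63 in controls (SD, n = 3 each). HLA-C followed at 124 ± 4.57 and 111 ± 3.31, then HLA-B at 76.8 ± 5.10 and 63.02 ± 2.87, and HLA-E at 62.8 ± 1.35 and 55.3 ± 2.56. With all annotated exons merged, which makes B2M 6079 bases long in place of 1705, HLA-C led at 76.3 ± 2.80 in the libraries labelled knockout and 68.0 ± 2.03 in controls. HLA-E at 54.9 ± 1.18 and 48.3 ± 2.24 and B2M at 50.9 ± 2.91 and 51.9 ± 2.70 then overlapped in both groups, and HLA-B stood at 39.0 ± 2.59 and 32.0 ± 1.46. Under both lengths TAPBP, TAP2 and TAP1 came next in that order, at 18.9, 12.8 and 9.24 CPM per kilobase of transcript in the libraries labelled knockout and 19.0, 13.0 and 9.56 in controls. PSMB9, at 2.11 and 2.397, and PSMB8, at 0.0946 and 0.261, were lowest under both.

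Most of these genes lie in the major histocompatibility complex on chromosome 6, and control 2 had fewer reads than the other controls over much of that chromosome. The median over 517 chromosome 6 genes was 87.4% of the mean of controls 1 and 3. The deficit was not even along the chromosome: the median was 95.9% between 20 and 40 Mb, where the complex lies, 86.02% between 40 and 60 Mb, and 80.8% to 85.1% in each 20 Mb step beyond. Among 60 genes between HLA-E and TAPBP, outside the gene lists used here, control 2 stood at 97.7%. It stood at 102% to 104% on the 18 autosomes without a deficit. On chromosomes 7, 8, 9 and X control 2 was lower than on chromosome 6, at 80.8%, 75.2%, 70.6% and 53.7%. HLA-B, HLA-C and HLA-E in control 2 were at 103%, 102% and 107% of the other controls, TAP1 at 99.4%, TAP2 at 101% and TAPBP at 94.7%.

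Without control 2 the heavy chain differences were slightly larger. The log2 fold changes were 0.30 for HLA-B (edgeR adjusted p = 0.00133), 0.18 for HLA-C (0.0178) and 0.21 for HLA-E (0.00433). Of all genes tested without control 2, 27.7% were called in either direction and 13.5% higher. TAP1, TAP2 and TAPBP had log2 fold changes of -0.056, -0.0098 and -0.030 without it, and B2M 0.018, none of them called. Scaling the libraries on chromosome 6 genes alone raised control 2 throughout the chromosome, the complex included. The log2 fold changes were then 0.24, 0.12 and 0.14 for HLA-B, HLA-C and HLA-E, with adjusted p of 0.0535, 0.215 and 0.217.

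**Figure D4:**
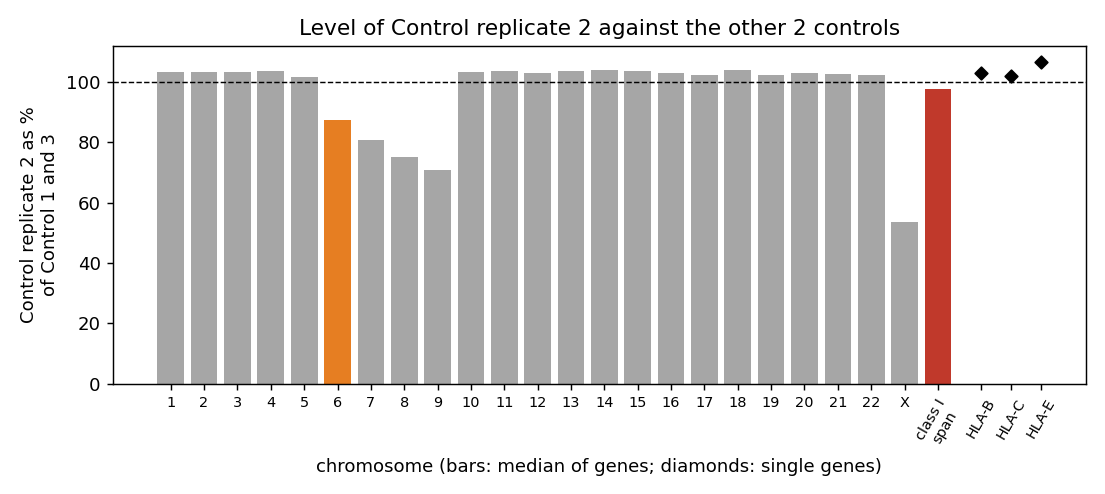
Level of control replicate 2 as a percentage of the mean of controls 1 and 3 (vertical axis): bars are medians over genes of each chromosome and over 60 genes between HLA-E and TAPBP (class I span), and diamonds are single genes. Chromosome 6 stands at 87.4%, the class I span at 97.7%, and HLA-B, HLA-C and HLA-E between 102% and 107%.

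Other genes between HLA-E and TAPBP were also called. Of 83 tested there outside the gene lists, 15 (18.1%) were called higher and 8 (9.64%) lower, against 9.73% and 11.4% of all genes, and their median log2 fold change was -0.0055. On chromosome 6 as a whole, 82 of 698 tested genes (11.7%) were higher and 68 (9.74%) lower, with a median of 0.032.

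Genes that load and trim peptides were not called. Of 8, among them the chaperone CALR, the aminopeptidase ERAP1 and tapasin's relative TAPBPL, edgeR called 0 higher and 0 lower, with the same counts at an unadjusted p under 0.05, with DESeq2 and with limma-voom. CALR measured 504 ± 22.3 CPM in the libraries labelled knockout and 522 ± 10.6 CPM in controls, and ERAP1 21.2 ± 1.501 and 22.5 ± 2.28 CPM (SD, n = 3 each). The median log2 fold change of the 8 was -0.073. Of all genes tested, 9.73% were called higher and 11.4% lower. Of 6 cytosolic peptidases, only THOP1 was called, higher by 0.19 (edgeR adjusted p = 0.0434). The call was lost with DESeq2 (0.0944), with upper quartile scaling (0.0886), with library size alone (0.245), with no filter (0.0574) and without any 1 library except control 2 (0.058 to 0.143).

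PA28, the activator that interferon also raises, was not called: PSME1 measured 68.5 ± 3.93 CPM in the libraries labelled knockout and 67.5 ± 5.95 CPM in controls, and PSME2 71.4 ± 4.07 and 77.9 ± 4.92 CPM (SD, n = 3 each). PSME3, a nuclear proteasome activator, rose by 0.26 (edgeR adjusted p = 0.00503). Its call held with any 1 library left out, but not with scaling by library size alone (0.0684). PSME3 and the core subunit PSMA5, higher by 0.19 (adjusted p = 0.0396), were the 2 calls among 14 other proteasome genes, and 0 were lower. Over all genes tested, 9.73% were called higher and 11.4% lower. The call of PSMA5 was lost without any 1 library except control 2 (0.0847 to 0.142), with DESeq2 (0.0905), with upper quartile scaling (0.103) and with library size alone (0.288).

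Regulators of class I transcription moved in both directions. Of 26 tested, 4 were higher and 6 lower, against 9.73% and 11.4% of all genes, and the median log2 fold change was 0.0045. NLRC5, the class I transactivator, rose to 15.3, 16.6 and 15.4 CPM in the libraries labelled knockout, against 10.9, 12.8 and 10.53 CPM in controls, and the groups did not overlap. Its log2 fold change was 0.47 (SE 0.10; edgeR adjusted p = 0.0135), and the call was lost narrowly without control 1 (0.0563) or replicate 2 labelled knockout (0.0502). RFX5, the DNA-binding subunit through which NLRC5 reaches class I promoters, fell to 42.6 ± 3.00 CPM in the libraries labelled knockout, against 54.8 ± 0.829 CPM in controls (SD, n = 3 each; log2 fold change -0.36; edgeR adjusted p = 0.00597). RFX5 was singled out after its values were seen.

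NFYA, a subunit of the CCAAT-binding NF-Y complex, rose by 0.46 (edgeR adjusted p = 0.033) and the interferon-gamma receptor chain IFNGR1 by 0.38 (adjusted p = 0.0263). Both lie on chromosome 6 outside the complex, where control 2 was low: it had 47.4 CPM of NFYA and 47.3 CPM of IFNGR1, against 64.9 and 66.8 CPM and 63.3 and 59.3 CPM in controls 1 and 3. Without control 2 the log2 fold changes were 0.32 and 0.26. The calls were lost without replicates 1 or 3 labelled knockout (NFYA 0.12 and 0.119, IFNGR1 0.0897 and 0.0896) and, for IFNGR1, without replicate 2 labelled knockout (0.0637).

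SOCS3, a feedback inhibitor of cytokine receptors, fell to 20.5, 20.6 and 20.4 CPM in the libraries labelled knockout, against 27.0, 29.5 and 25.5 CPM in controls, and this call held with any 1 library left out (edgeR adjusted p from 0.00321 to 0.035). IRF1, an interferon-induced activator of class I and TAP1 promoters, measured 32.9 ± 3.43 CPM in the libraries labelled knockout and 31.1 ± 0.997 CPM in controls (SD, n = 3 each; edgeR adjusted p = 0.515). Counts for the 26 regulators ranged from 1 to 5 higher and from 3 to 6 lower over the libraries left out in turn: 1 higher without any 1 library labelled knockout, 2 without control 1, and 3 lower without replicates 1 or 3 labelled knockout.

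**Figure D5:**
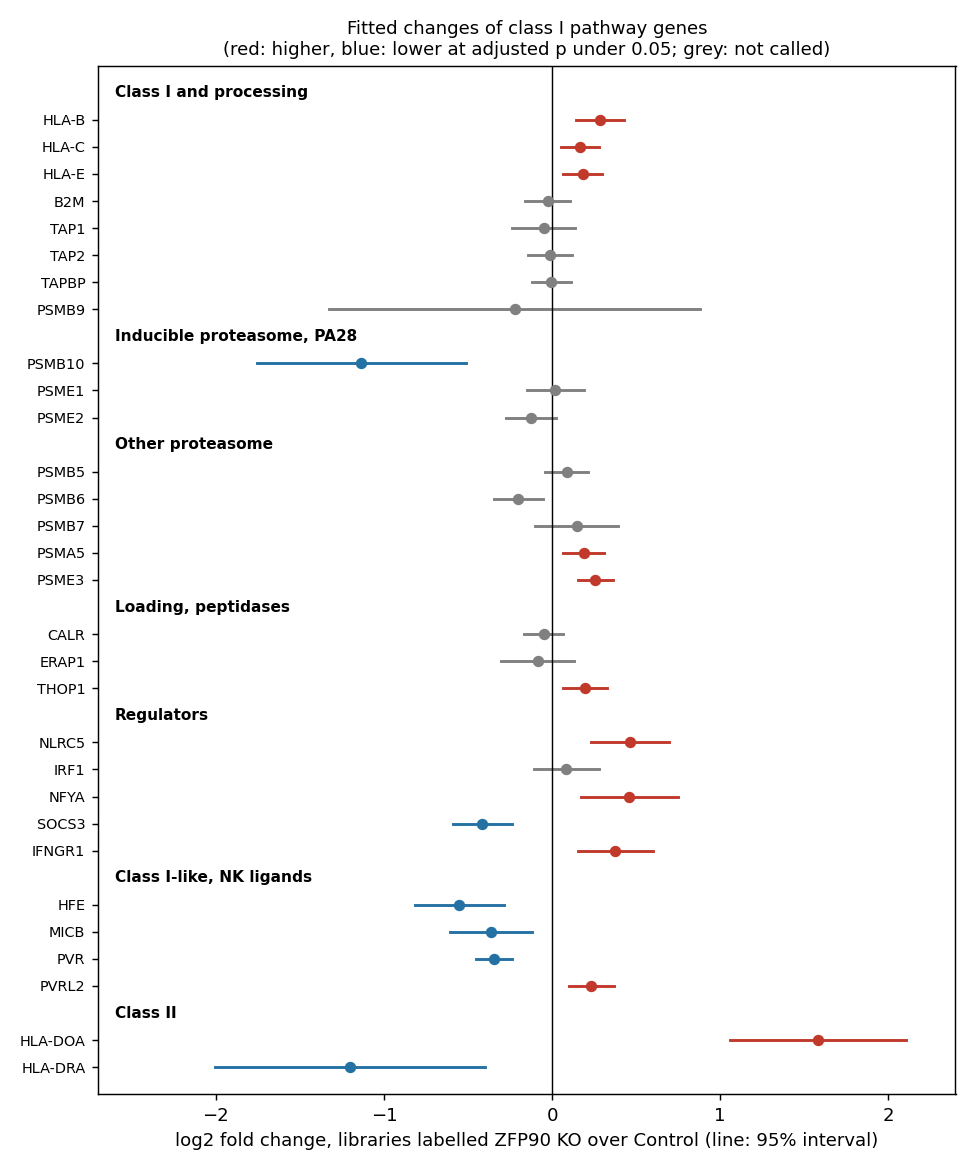
Log2 fold change of the libraries labelled knockout over controls (horizontal axis; lines are 95% intervals) for the class I genes and named genes of the wider pathway, grouped by role; red is called higher, blue called lower and grey not called. HLA-B, HLA-C and HLA-E lie at 0.17 to 0.29, B2M, TAP1, TAP2 and TAPBP within 0.06 of 0, and the regulators lie on both sides of 0.

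Among 14 tested stress ligands, checkpoint ligands and class I-like partners of B2M, 4 were called in either direction, or 28.6%, against 21.1% of all genes. HFE, a class I-like partner of B2M that controls iron uptake, fell by 0.55 (edgeR adjusted p = 0.0121), and the call was narrowly lost without replicate 1 labelled knockout (0.0518). Of 10 tested stress and checkpoint ligands, 1 was higher and 2 lower, with a median log2 fold change of -0.22. PVR, a ligand of the natural killer receptor DNAM-1, fell to 150.4 ± 5.49 CPM in the libraries labelled knockout, against 191 ± 3.70 CPM in controls (SD, n = 3 each; edgeR adjusted p = 0.00158), and kept its call with any 1 library left out. MICB, a stress ligand of NKG2D, fell by 0.36 (adjusted p = 0.042), and PVRL2, related to PVR, rose by 0.23 (0.0239). MICB lost its call with DESeq2 and without any 1 library except control 2 (0.0644 to 0.139), and PVRL2 without control 1 or any 1 library labelled knockout (0.0517 to 0.0774) and with library size alone (0.103), which left 0 ligands higher. Without control 2, 4 ligands were lower.

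Class II genes mark professional antigen-presenting cells, and most had few reads. Summed CPM of the 11 listed was 23.2 to 25.1 in the libraries labelled knockout and 20.7 to 25.9 in controls. Of these genes, 5 were tested, with 1 called higher and 1 lower, against 9.73% and 11.4% of all genes. Most of the sum was HLA-DMA, part of the class II peptide exchanger, at 16.3 ± 0.46 CPM in the libraries labelled knockout and 16.5 ± 1.43 CPM in controls (SD, n = 3 each; edgeR adjusted p = 0.914). HLA-DOA, which restrains class II peptide exchange, rose to 2.84, 2.34 and 2.68 CPM in the libraries labelled knockout, against 0.802, 0.724 and 1.12 CPM in controls (log2 fold change 1.58; edgeR adjusted p = 0.00201, and from 0.000858 to 0.0145 with 1 library left out). HLA-DRA, a class II chain, had 6, 5 and 8 reads in the libraries labelled knockout and 13, 12 and 18 in controls; its call (adjusted p = 0.0421) was lost with DESeq2 (0.122) and without any 1 library except control 2 (0.0663 to 0.141).

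The genes whose pattern over the 6 libraries was closest to the mean of HLA-B, HLA-C, HLA-E and B2M were SENP5, C19orf43 and MFN2. Closeness was the root mean square difference in centred log2 CPM, at 0.015, 0.017 and 0.021. For the mean of TAP1, TAP2 and TAPBP they were PIGN, METTL14 and PAPOLA, at 0.015, 0.016 and 0.017. For PSMB9 they were PRDX3P1, DQX1 and TERF1P5, at a looser 0.18, 0.21 and 0.24. These patterns were ranked among 16369 genes over 6 libraries and are a description only.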

How the data were processed

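Total RNA was extracted with Trizol, and libraries were made with an Illumina TruSeq RNA kit from 1 µg, per the labels' protocols. The authors deposited untransformed read counts by gene symbol, with 1 table for each library. TopHat2 2.0.11 and HTSeq were named with builds hg19 and GRCh37 per the submitters' processing notes; for the HTSeq version, strand setting and annotation, nothing is given in the sources used here. With the strand setting unknown, antisense and overlapping genes may share reads. The 5 summary lines, 31.7% to 32.4% of listed reads, were left out.

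Counts were tested with edgeR 4.0.16 in R 4.3.3 (quasi-likelihood test, trended dispersion, TMM scaling, filterByExpr with minimum count 10 and minimum total 15), over 16369 genes with Benjamini-Hochberg adjustment and a threshold of 0.05. CPM used TMM-scaled library sizes. Also run were RLE, upper quartile, library size and chromosome 6 scaling, limma-voom (limma 3.58.1), DESeq2 1.42.0, other filters, the replicate number as a block and each library left out. On simulated data 200 genes were given a change, and only those that passed the count filter entered the recovery. These were 38, 30 and 39 genes at 1.5, 2 and 4-fold, of which the test recovered 68.4%, 70% and 100%. Changes as small as those fitted for HLA-B, HLA-C and HLA-E were not simulated, nor was a deficit like that of control 2. No replicate pair agreed within sampling noise (chi-square per degree of freedom 2.2 to 19.8). Positions came from GENCODE release 29 (GRCh38), by symbol, for 83.7% of tested genes.

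The genes and lists were chosen with earlier results of these data known. Named were the 9 genes, ZFP90, up to 4 called genes of each list with the largest change, 11 preset genes, and the 3 closest patterns per role. RFX5, HLA-F, HLA-G, HLA-DMA, TAPBPL, VIL1, CDX1, PTPRC, CD8A, LYZ and ITGAM were added after their values were seen. The result of 1 preset gene is not reported here. Medians along chromosomes used genes with at least 100 reads on average in controls. Inducible to standard proteasome ratios were tested by exact permutation.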

Additional observations from a re-analysis of the deposited data

How the results depend on the processing

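HLA-B, HLA-C, HLA-E and the summed heavy chain reads stayed above 0 in every scaling, tool, filter and set of libraries run, but their calls did not hold in all. The sum had log2 fold changes of 0.17 with upper quartile scaling (edgeR adjusted p = 0.082), 0.12 with library size alone (0.255), 0.15 with scaling within chromosome 6 (0.175) and 0.19 at an adjusted p under 0.01; with 1 library left out it ran from 0.16 to 0.22. The reads of HLA-B, HLA-C and HLA-E alone, set over B2M, TAPBP or TAP2 reads within each library, gave 0.23, 0.21 and 0.22; these genes were picked with their changes known, so the ratios are no separate check of the 14-gene sum. The class I genes called higher numbered 1 with upper quartile scaling, 0 with library size alone, 1 with DESeq2, 0 with scaling within chromosome 6, 0 at an adjusted p under 0.01, and 0 to 3 with 1 library left out; 0 were called lower in every setting. Over all genes, 986 were higher with library size alone (2343 lower, against 1593 and 1861), 618 higher and 869 lower at an adjusted p under 0.01, and 756 to 2261 higher and 1025 to 2361 lower with 1 library left out. Apart from the stricter threshold and the libraries left out, the cause of these moves was not tested. Signs changed only for genes never called: PSME1 (-0.0039 with upper quartile scaling, -0.050 with library size alone, -0.035 to 0.094 with 1 library left out), TAPBP (0.00090 with no filter, -0.030 to 0.0094), TAP2 (-0.060 to 0.015), B2M (-0.076 to 0.018), PSMB9 (-0.94 to 0.18) and its ratio to PSMB6 (-0.78 to 0.38). The PSMB8 ratio gave no value. Same-numbered libraries correlated at 0.049, 0.14 and 0.093 in their deviations, so the numbers were not taken as pairs, although each library correlated best with its own number. With the replicate block, 1623 genes were higher and 1840 lower, and the adjusted p was 0.00926 for HLA-B, 0.0356 for HLA-C and 0.0307 for HLA-E; among the named genes, the block ended the call of KRT18 alone. Where a library is left out, its group keeps 2, and the spread is pooled over both groups. PSMB8, PSMB9 and PSMB10 had at most 42 reads in any library.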
